A study of Mus musculus with 15 samples.

Results

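The regions described here were bound by Mel18 in mouse embryonic stem cells (ESCs) and had no peak of Mel18, Cbx2, Ring1b or RYBP in early cardiac mesoderm precursors (MES). They were chosen by the presence and absence of peaks in 5 deposited ChIP-seq peak lists. Peaks of all 5 lists that overlapped by at least 1 bp were merged into 11853 regions on chromosomes 1 to 19, leaving out chromosome 9 below 3.04 Mb. Of these, 5237 held an ESC Mel18 peak, and 1630 of the 5237 held no MES peak of any list (31.1%, exact Clopper-Pearson 95% interval 29.9 to 32.4). Both values depended on the score threshold: with the upper 50% of each list by score, 479 regions (18.1%) met the rule, and without the lowest score quartile of the ESC list 655 (16.9%). The 1630 are called ESC-restricted regions below, which names their peaks and says nothing of binding under the peak threshold.

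The series had 15 samples, 6 of ChIP-seq and 9 of RNA-seq, and the 5 ChIP-seq samples with peak lists were used. All 5 came from the E14Tg2A embryonic stem cell line, with no mutation or knockdown named for them. The ESC sample was immunoprecipitated for Mel18 from undifferentiated cells kept for at least 8 passages in medium with LIF, a cytokine that supports self-renewal, and kinase inhibitors. The 4 MES samples were immunoprecipitated for Mel18, Cbx2, Ring1b or RYBP from cells differentiated from that line with BMP4, typically at 0.1 to 0.3 ng/ml. The Mel18 antibody was of the same lot in ESCs and MES. Each list came from 1 sample of unknown read depth, so no difference between lists has a replicate check and no test between ESCs and MES was possible. The cell states could not be checked against marker genes, because expression data were not analysed here.

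Mel18, also named Pcgf2, is one of the PCGF proteins around which Polycomb repressive complex 1 (PRC1) assembles. Ring1b is the E3 ligase of PRC1 and ubiquitinates histone H2A, Cbx2 belongs to canonical PRC1 and can read methylated histone H3 through its chromodomain, and RYBP takes the place of a CBX protein in variant PRC1. In ESCs, PRC1 is known for holding genes of developmental regulators silent until cells commit to a lineage. No genome or annotation of mm9, the build of the files, was used, so regions are named by mm9 coordinates, counted from 1, with no gene, exon or sequence assigned.

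ESC-restricted regions were one of 3 outcomes for Mel18 sites of ESCs. Another 2479 regions (47.3%, interval 46.0 to 48.7) also held a MES Mel18 peak and are called retained regions. The other 1128 regions (21.5%, interval 20.4 to 22.7) held a MES peak of Cbx2, Ring1b or RYBP but none of Mel18 and are called partner-only regions. Of the partner-only regions, 545 had Ring1b with RYBP, 203 RYBP alone and 191 Ring1b alone. ESC-restricted regions made up less of the sequence than of the number of sites. They covered 1.23 Mb, or 11.7% of the 10.5 Mb under ESC Mel18 peaks, whereas retained regions covered 73.9% and partner-only regions 14.4%. Each ESC-restricted region held exactly 1 ESC peak by construction, because peaks of 1 list did not overlap each other.

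The lists differed in how many of their regions held no peak of another list. The share was 31.1% for ESC Mel18, 10.5% for MES Mel18 (375 of 3566 regions, interval 9.53 to 11.6) and 12.4% for MES Cbx2 (428 of 3444, interval 11.3 to 13.6). It was 18.4% for MES RYBP (1230 of 6683, interval 17.5 to 19.4) and 26.6% for MES Ring1b (2012 of 7570, interval 25.6 to 27.6). ESC Mel18 thus had the highest share, but it was also the only ESC list, and list length and depth were not matched.

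Most ESC-restricted regions were among the weakest Mel18 sites of ESCs. The score is the authors' own value per peak on a scale that was not stated, started at about 50 in the ESC list, and is used here only within that list. ESC-restricted regions had a median score of 62.3 (quartiles 54.0 and 83.2), against 113 (70.7 and 223) for partner-only regions and 465 (178 and 1259) for retained regions. A score below 60 was found in 732 of them (44.9%), and a score below 100 in 1347 (82.6%). Only 111 (6.81%, interval 5.63 to 8.14) reached the lower quartile of retained regions, and 17 (1.04%) reached their median. In the other direction, 92 of 2479 retained regions (3.71%) scored at or below the median of ESC-restricted regions, so the score ranges overlapped. When each list was limited to its upper 50%, the median over regions that met the rule was 228 for score and 1374 bp for width, since that setting removes the low-scoring peaks. These score differences were not tested, since regions of 1 library are not replicates.

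The share of ESC Mel18 regions without a MES peak fell at each of the 10 score deciles. It was 80.3% (interval 76.7 to 83.7) in the lowest decile, 67.7% in the second, 60.04% in the third, 45.04% in the fourth and 26.3% in the fifth. From the sixth decile on it was 15.9, 11.6, 2.68, 1.34 and 0.191%, the last being 1 region of 524. The lowest 3 deciles held 1090 of the 1630 ESC-restricted regions (66.9%). Partner-only regions did not follow the same course. Their share was 14.3% in the lowest decile, was highest at 35.9% in the fifth and was 3.82% in the highest.

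**Figure D1:**
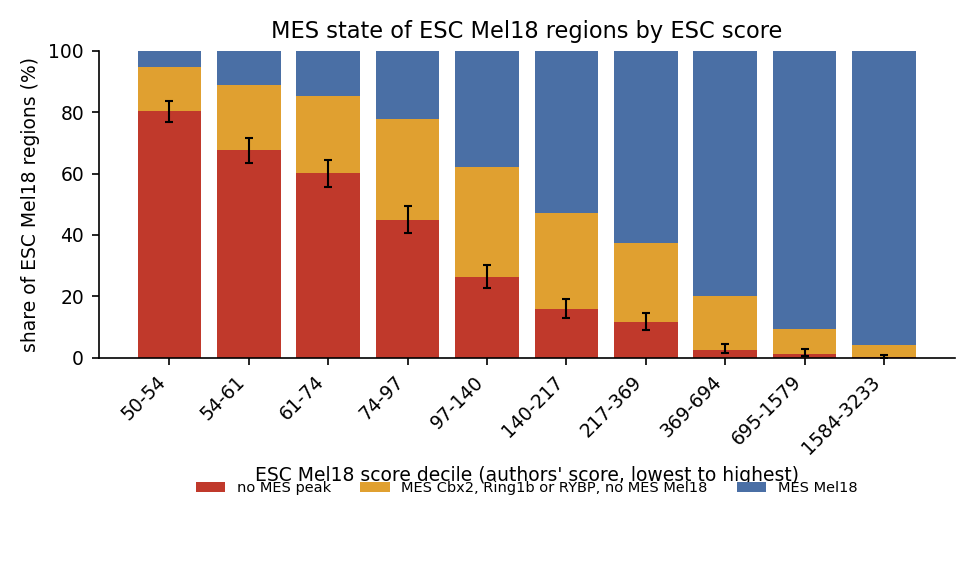
Share of ESC Mel18 regions (y axis, percent) by decile of the ESC Mel18 score (x axis, authors' score, with the lowest and highest value of each decile), divided into ESC-restricted (red), partner-only (orange) and retained regions (blue). Error bars are exact 95% intervals of the red share, which falls from 80.3% in the lowest decile to 0.191% in the highest, while the orange share is highest in the fifth decile at 35.9%.

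ESC-restricted regions were narrow. Their median width was 660 bp (quartiles 510 and 876 bp), 1358 of 1630 (83.3%) were at most 1000 bp wide and 1606 (98.5%) at most 2000 bp. ESC Mel18 peaks had a median width of 1652 bp (1023 and 2619 bp) in retained regions and 998 bp (756 and 1444 bp) in partner-only regions. Width rose with score in every class. A narrower peak also has less sequence with which to meet a MES peak, so width is not independent of how the regions were chosen.

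Within bins of similar score, ESC-restricted peaks were still the narrowest by median, by a smaller margin. At scores from 50 to below 60, the median width was 539 bp for 732 ESC-restricted peaks, 693 bp for 198 partner-only peaks and 660 bp for 205 peaks of retained regions. At scores from 80 to below 120, it was 841 bp for ESC-restricted, 927 bp for partner-only and 908 bp for retained peaks. At scores from 200 to below 400, it was 1295 bp for 71 ESC-restricted peaks, 1498 bp for partner-only and 1544 bp for retained peaks. The quartile ranges of the 3 classes overlapped in all 5 bins.

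**Figure D2:**
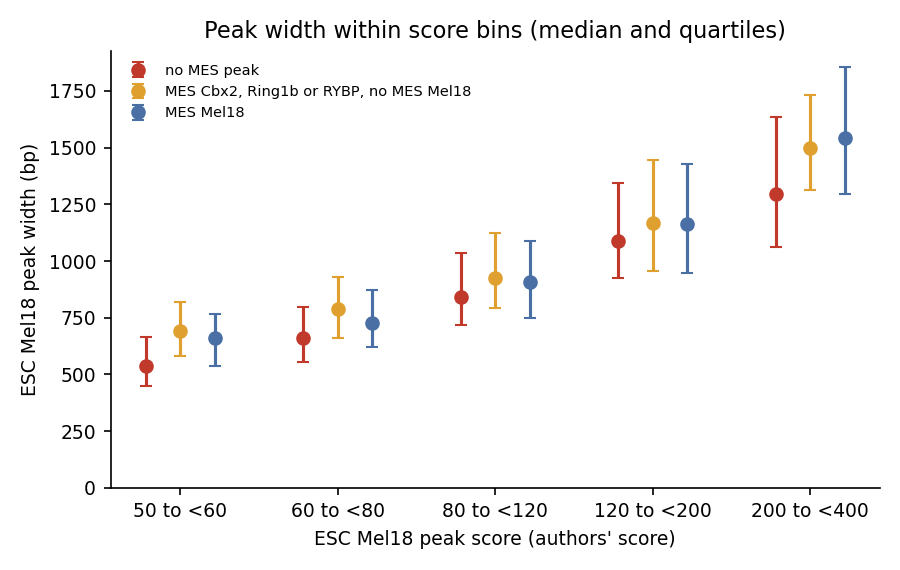
Width of ESC Mel18 peaks (y axis, bp) in 5 bins of ESC Mel18 score (x axis, authors' score), as median (point) and lower and upper quartile (bars) for ESC-restricted (red), partner-only (orange) and retained (blue) peaks. Red medians lie lowest in each bin, from 539 bp in the lowest to 1295 bp in the highest bin, and the quartile ranges overlap.

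Most ESC-restricted regions, 1249 of 1630, had no MES peak within 10 kb. The rule itself cuts on this distance, and random positions were not compared. The distance from the region's edge to the nearest MES peak of any list had a median of 37.2 kb (quartiles 11.5 and 86.8 kb). With the upper 50% of each list by score, which gave another set of regions and fewer MES peaks, the median was 110.7 kb. A MES peak lay within 1 kb of 102 regions (6.26%) and within 10 kb of 381 (23.4%). No MES peak lay within 100 kb of 357 regions, and none within 1 Mb of 14. The nearest region with MES peaks but no ESC Mel18 peak lay at a median of 68.3 kb. For retained and partner-only regions this median was 71.4 and 87.2 kb, so ESC-restricted regions were not farther from such regions by median. At close range they were less often near one than retained regions. Such a region lay within 10 kb of 10.6% of ESC-restricted, 19.2% of retained and 9.57% of partner-only regions. Median distances of ESC-restricted regions were 48.5 kb to Ring1b and 56.4 kb to RYBP, against 126.1 kb to MES Mel18 and 126.3 kb to Cbx2. The Ring1b and RYBP lists were also the longer ones, with 8422 and 7492 peaks used, against 4048 for MES Mel18 and 3600 for Cbx2.

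The subunit nearest to an ESC-restricted region was Ring1b for 538 regions (33.0%), RYBP for 509 (31.2%), Cbx2 for 376 (23.1%) and Mel18 for 207 (12.7%). The 4 lists held 35.7, 31.8, 15.3 and 17.2% of the MES peaks, in the same order. Cbx2 was thus nearest more often than its share of peaks and Mel18 less often, and this difference was not tested. Distances ran between edges, so wider peaks reach closer. The median peak width was 2521 bp for Cbx2, 1878 bp for MES Mel18, 1486 bp for RYBP and 1189 bp for Ring1b. The nearest region with a MES peak held no ESC Mel18 peak for 905 ESC-restricted regions (55.5%), was a retained region for 445 (27.3%) and a partner-only region for 280 (17.2%).

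**Figure D3:**
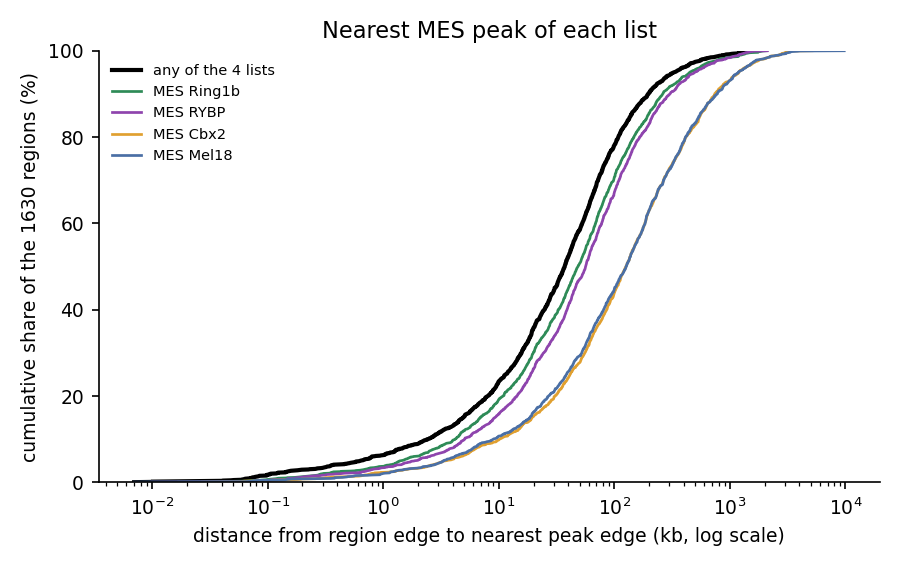
Cumulative share of the 1630 ESC-restricted regions (y axis, percent) by distance from the region's edge to the edge of the nearest MES peak (x axis, kb, log scale), for each MES list and for any of the 4. The curves of Ring1b and RYBP lie left of those of Cbx2 and MES Mel18, with medians of 48.5, 56.4, 126.3 and 126.1 kb, and the last 2 curves nearly coincide.

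The median score was lowest at 10 to 50 kb from a MES peak and highest beyond 500 kb. The median score was 72.3 (quartiles 57.9 and 96.5) in the 102 regions within 1 kb of a MES peak, 65.0 in the 279 at 1 to 10 kb and 59.9 in the 571 at 10 to 50 kb. It was 62.9 in the 321 at 50 to 100 kb, 60.6 in the 315 at 100 to 500 kb and 76.4 (58.2 and 140.9) in the 42 beyond 500 kb. The quartile ranges overlapped in all of these bins. Regions far from every MES peak were therefore not confined to the lowest scores.

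At the edge of the rule, small shifts in peak ends decided membership. The 5 ESC-restricted regions nearest to a MES peak lay on chromosome 16 (63856817 to 63857442, 7 bp away), chromosome 12 (31951427 to 31951957, 10 bp), chromosome 3 (131746836 to 131747381, 10 bp), chromosome 11 (69179540 to 69180305, 17 bp) and chromosome 11 (119909289 to 119909923, 24 bp). Their scores were 74.0, 54.0, 58.5, 71.4 and 61.9. The 5 ESC Mel18 regions kept out by the shortest overlap lay on chromosome 12 (114237891 to 114239767, 5 bp of overlap), chromosome 11 (94744042 to 94745275, 6 bp), chromosome 15 (102076947 to 102078848, 7 bp), chromosome 9 (43687695 to 43689904, 18 bp) and chromosome 6 (85323239 to 85325292, 45 bp). Their scores were 51.2, 57.7, 53.6, 73.4 and 55.8, in the same range as those just inside. In all, 29 ESC-restricted regions had a MES peak at most 100 bp away, and 7 regions were kept out by an overlap of at most 100 bp.

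A minority of ESC-restricted regions lay beside another ESC Mel18 site. Another ESC Mel18 region lay within 10 kb of 368 (22.6%), compared with 20.2% of retained and 17.4% of partner-only regions, and within 1 kb of 162 (9.94%). The shares of the classes are not fully comparable, because MES peaks joined neighbouring ESC peaks of retained and partner-only regions into 1 region. Retained regions held 3517 ESC peaks in 2479 regions, and partner-only regions 1247 in 1128. For the 368 ESC-restricted regions, the nearest ESC Mel18 region was another ESC-restricted one in 155 cases, a retained one in 131 and a partner-only one in 82. Where the neighbour was retained, it scored higher than the ESC-restricted region in 123 of 131 pairs, with median scores of 566 against 66.2. Where the neighbour was partner-only, it scored higher in 61 of 82 pairs, with medians of 133 against 71.1. The ESC-restricted region was thus mostly the weaker of such a pair, but the classes differed in the same way over all regions. Only 3.71% of all 2479 retained regions scored at or below the median of all ESC-restricted regions. That median was 62.3, against 113 for all partner-only regions. The score of a region with several ESC peaks is that of its highest peak. Whether pairs differed more than the classes as a whole was not tested. When peaks within 1 kb were joined, 48 ESC-restricted regions became part of a joined region with a MES Mel18 peak and 65 part of one with other MES peaks only, and 1517 (93.1%) stayed without a MES peak.

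The 15 ESC-restricted regions with the highest scores included sites far from any MES peak and sites that lay close to other ESC Mel18 peaks. The highest score, 3100, where 289 peaks of the ESC list stood, was that of a 4797 bp region on chromosome 3 (130811764 to 130816560). It lay 86 bp from another ESC Mel18 peak with a score of 2023, which overlapped MES Ring1b and RYBP peaks, and the nearest MES Mel18 and Cbx2 peaks were 335.1 and 334.3 kb away. Joined with that peak, the stretch spanned 8791 bp. On chromosome 15 (102743236 to 102745089, score 842), a RYBP peak lay 1522 bp, a MES Mel18 peak 5294 bp and a Cbx2 peak 7100 bp away, and the nearest Ring1b peak 136.3 kb away. On chromosome 3 (143864307 to 143867038, score 703), Cbx2 lay 268 bp and RYBP 442 bp away, but MES Mel18 1100 kb away. On chromosome 6 (51126554 to 51128378, score 502), MES Mel18 lay 74 bp away, the smallest distance among the 15. On chromosome 8 (26623916 to 26626236, score 550), Ring1b lay 2810 bp and RYBP 2884 bp away.

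The other 10 of these 15 had no MES peak within 10 kb. The region on chromosome 11 (103631898 to 103636770) scored 1241 over 4873 bp and lay 19.3 kb from the nearest MES peak, a Mel18 peak. The region on chromosome 10 (29252456 to 29256295) scored 1183 over 3840 bp, with Ring1b and RYBP peaks 218.8 kb away and MES Mel18 and Cbx2 peaks 1305 kb away. It was the highest-scoring ESC-restricted region with no MES peak within 100 kb. On chromosome 15 (76008919 to 76012955, score 932) the nearest MES peaks were those of Mel18, RYBP and Ring1b at 46.0 to 46.3 kb. On chromosome 11 (24062971 to 24065522, score 906) RYBP and Ring1b lay 80.5 and 80.6 kb away, and the nearest ESC Mel18 region, 79.9 kb away, was a retained one with a score of 3100. On chromosome 3 (97627146 to 97629303, score 570) MES Mel18 lay 41.6 kb and Ring1b 41.9 kb away. On chromosome 7 (116752936 to 116754161, score 488) RYBP lay 91.9 kb away.

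The remaining 4 regions had no MES peak within 100 kb. Of these, 2 adjoined each other on chromosome 10 (112255443 to 112257586, score 483, and 112257717 to 112260549, score 1102). Another ESC-restricted peak with a score of 163 followed after 28 bp, so that the 3 made up a stretch of 6.004 kb with no MES peak within 103.4 kb. On chromosome 2 (89227057 to 89228707) a region with a score of 538 lay 1190 kb from the nearest MES peak. On chromosome 18 (40467608 to 40468123) a region of 516 bp scored 503 and lay 815.6 kb from the nearest MES peak. It had the highest score per bp of all ESC-restricted regions, and its width was below their median of 660 bp.

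The widest ESC-restricted region was not among the strongest. It spanned 7142 bp on chromosome 11 (3051985 to 3059126) with a score of 162, 15.7 kb from the nearest MES peak. The next 4 by width were the regions on chromosome 11 from 103631898, chromosome 3 from 130811764, chromosome 15 from 76008919 and chromosome 10 from 29252456, all among the 5 highest scores. The widest region lay close to the start of the chromosome's coordinates, as did 5 others that started below 3.1 Mb on chromosomes 4, 11 and 18, with scores of 67.1 to 446. How uniquely reads could be placed there was not tested. The values without these 6 regions were within the intervals of the main ones. With 6 of 1630 regions removed they could hardly leave them, so this does not bear on read placement.

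ESC-restricted regions were spread over all 19 autosomes. Their share of ESC Mel18 regions ran from 24.6% on chromosome 13 (52 of 211, interval 18.99 to 31.03) and 25.4% on chromosome 14 (35 of 138, interval 18.3 to 33.5) to 35.7% on chromosome 15 (94 of 263, interval 29.9 to 41.9) and 35.9% on chromosome 8 (102 of 284, interval 30.3 to 41.8). The interval held the overall 31.1% for 18 chromosomes, and for chromosome 13 its upper end lay just below. Median scores per chromosome ran from 57.8 on chromosome 17 to 73.9 on chromosome 18.

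**Figure D4:**
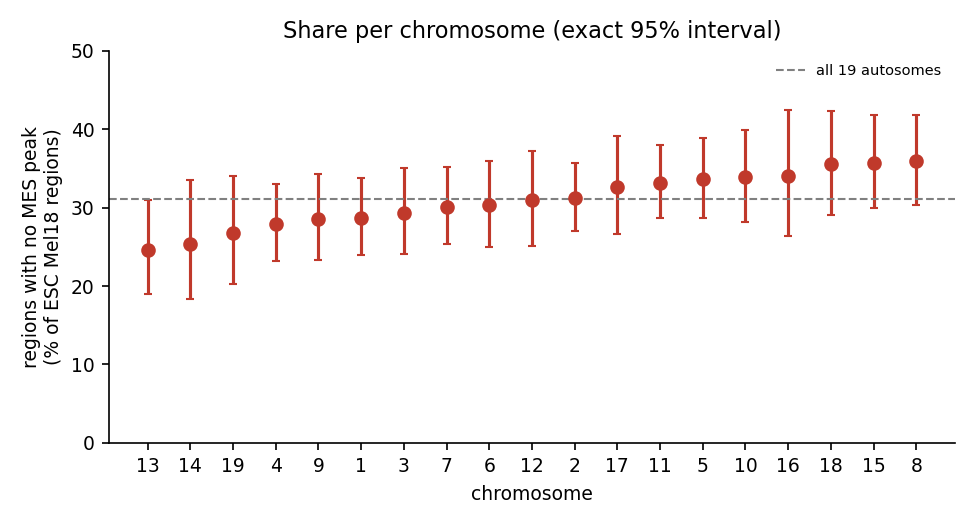
ESC-restricted regions as a share of ESC Mel18 regions (y axis, percent) on each autosome (x axis, ordered by share), with exact 95% intervals as bars and the overall 31.1% as a dashed line. Shares run from 24.6% on chromosome 13 to 35.9% on chromosome 8, and the intervals of neighbouring chromosomes overlap.

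Along chromosomes, most ESC-restricted regions stood alone, as did most regions of the other classes. Another region of the same class lay within 10 kb of 10.4% of ESC-restricted, 13.6% of retained and 6.03% of partner-only regions. These shares were not adjusted for the number of regions per class (1630, 2479 and 1128), and a larger class offers more neighbours. They were also not adjusted for the joining of ESC peaks by MES peaks in the other classes. Joining ESC-restricted regions within 10 kb of each other left 1460 (89.6%) single regions, 55 pairs and 16 clusters of 3 or more, which held 60 regions (3.68%). Of the 925 windows of 1 Mb with at least 1 ESC-restricted region, 92.3% held 1 to 3 of them. A window on chromosome 18 starting at 37 Mb stood apart with 24 ESC-restricted regions among 46 ESC Mel18 regions. The next by count was a window on chromosome 15 starting at 102 Mb with 9 of 37, and no other window held more than 6. The share was above the overall 31.1% in the chromosome 18 window and below it in the chromosome 15 window.

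The chromosome 18 stretch (37091503 to 37250677) was a run of separate ESC Mel18 peaks that were nearly all without a MES peak. It held 19 ESC Mel18 regions over 159.2 kb, of which 18 were ESC-restricted and 1 overlapped a MES Ring1b peak. The 18 had scores of 57.03 to 335 with a median of 209, above the 62.3 of all ESC-restricted regions, and widths of 490 to 1443 bp. Most fell into 2 clusters of 8, from 37105435 to 37122559 and from 37159041 to 37182279. Within the first cluster gaps between peaks ran from 35 to 5479 bp, and the nearest MES peak of any list was the single Ring1b peak 58.1 kb away. In the second cluster this Ring1b peak lay 353 bp from the nearest member, at the ESC Mel18 peak with the highest score of the stretch (605). MES Mel18, Cbx2 and RYBP peaks were at least 118.8 kb away from the second cluster and 178.5 kb from the first.

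The chromosome 15 stretch (102739698 to 102872665) showed the other kind of arrangement, in which ESC-restricted regions lay in gaps between sites that had RYBP in MES. Of its 22 ESC Mel18 regions, 16 were partner-only, each with RYBP alone, and 6 were ESC-restricted. The 6 lay 151 to 2600 bp from the nearest MES peak. Their scores were 83.2 to 842 with a median of 141, against 64.6 to 3223 with a median of 935 for the 16 partner-only regions. MES Mel18, Cbx2 and Ring1b had no peak between its first and last ESC Mel18 peak. MES Mel18 and Cbx2 peaks lay just before it, 5294 and 7100 bp from the ESC-restricted region that starts at 102743236.

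**Figure D5:**
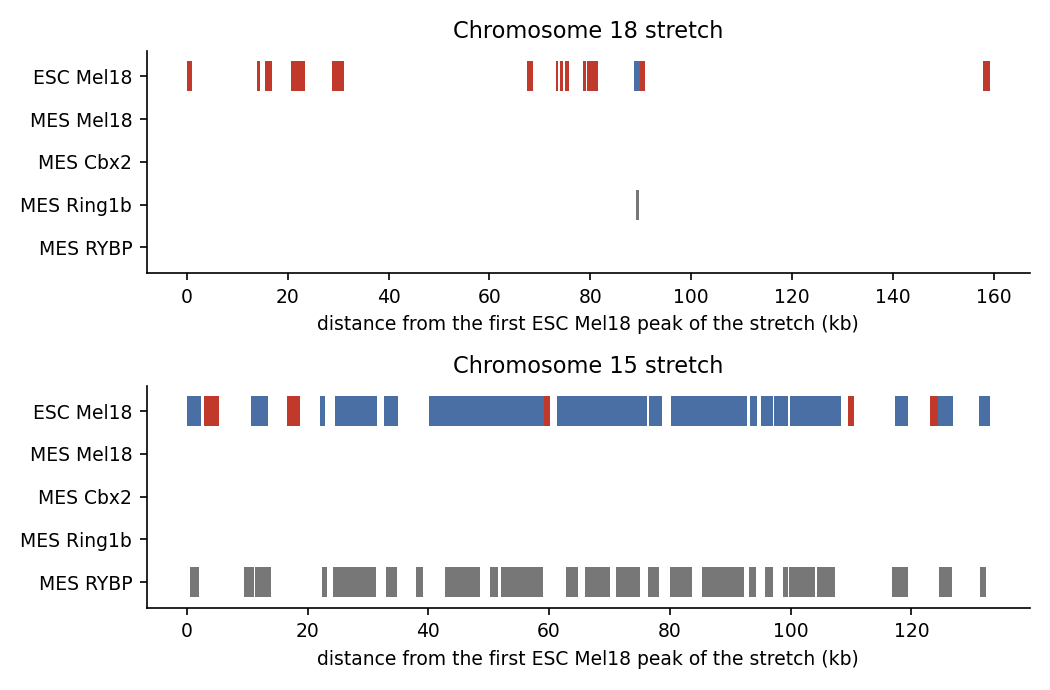
Peaks of the 5 lists (rows) along the chromosome 18 and chromosome 15 stretches, by distance from the first ESC Mel18 peak (x axis, kb), with ESC-restricted peaks in red, other ESC Mel18 peaks in blue and MES peaks in grey. On chromosome 18, 18 of 19 ESC Mel18 regions are red and a single Ring1b peak is present, whereas on chromosome 15 the 6 red regions lie between RYBP peaks.

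The other 14 clusters had 3 or 4 ESC-restricted regions. Of all 16 clusters, 8 had a MES peak within 10 kb of a member, 5 at 10 to 100 kb and 3 farther than 100 kb. These 3 were the stretch on chromosome 10 from 112255443, one on chromosome 18 (63813016 to 63817988, scores 53.1 to 98.6) and one on chromosome 2 (89225042 to 89228707). The chromosome 2 cluster held 4 peaks with scores of 60.4 to 538 that were 11 to 49 bp apart, and its nearest MES peak was a Cbx2 peak 1190 kb away. In 6 clusters every gap was below 500 bp, so that a stretch of 2.8 to 6.0 kb had been divided into 3 or 4 peaks.

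Clusters near MES peaks differed in which subunit was nearest. On chromosome 14 (29325815 to 29336223, 3 regions, highest score 483) all 4 MES subunits had a peak between 580 and 1326 bp away. On chromosome 10 (60276100 to 60290160, highest score 361) all 4 lay between 2531 and 3317 bp away. On chromosome 5 (143580481 to 143583935, highest score 131) RYBP lay 143 bp, Ring1b 348 bp, Cbx2 954 bp and MES Mel18 1143 bp away. On chromosome 18 (83086855 to 83093002, scores 50.1 to 57.5) Cbx2 was nearest at 1513 bp and the other 3 subunits lay 3067 to 5587 bp away. On chromosome 19 (45100315 to 45115368, 4 regions, highest score 261) Ring1b was nearest at 9180 bp and the other 3 subunits lay 33.1 to 33.6 kb away. On chromosome 3, the cluster from 143861190 had Cbx2 and RYBP nearby, and that from 130803769 had RYBP and Ring1b nearby, with no MES Mel18 peak within 335.1 kb of either.

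The other clusters lay 20.6 to 80.1 kb from the nearest MES peak. On chromosome 2 (125548226 to 125551213, highest score 338) RYBP and Ring1b lay 48.3 and 48.7 kb away. On chromosome 4 (107507236 to 107519469, highest score 188) both lay 30.3 kb away. On chromosome 8 (10923700 to 10926520, highest score 127) RYBP lay 80.1 kb away and MES Mel18 384.9 kb. On chromosome 11 (3000094 to 3004880, highest score 308), at the start of the coordinates, RYBP lay 20.6 kb away.

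The 14 ESC-restricted regions with no MES peak within 1 Mb included 5 on chromosome 2, of which 4 formed the cluster from 89225042. Their scores ran from 50.1 to 538, and 8 of the 14 scored 100 or more, whereas 82.6% of all ESC-restricted regions scored below 100. After the chromosome 2 cluster, the highest scores were 306 on chromosome 8 (61390708 to 61392205, 1258 kb from a MES peak) and 304 on chromosome 2 (16277544 to 16279902, 1371 kb). The region farthest from a MES peak lay on chromosome 4 (77857212 to 77857719, score 70.8) at 1760 kb.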

How the data were processed

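Each deposited peak list gave chromosome, start, end, a peak name with the MACS tag and 1 score per peak from the authors' peak calling. Reads were placed on mm9, and Bowtie and TopHat were named, per the submitters' processing notes. How the caller was set, its control and any pooling of replicates are not given in the sources used here. Because the authors' score had an unstated scale, it was used only within the ESC list.

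Peaks sharing at least 1 bp were merged across the 5 lists, and distances were measured between edges. Shares have exact Clopper-Pearson 95% intervals, which cover counting error only. Depth was unknown. No test was made, because each list came from 1 sample. The members and lists were chosen with earlier results of these data known. Regions named are the 15 with the highest scores, the 5 widest, the 5 nearest to a MES peak, the 5 kept out by the shortest overlap and clusters of 3 or more within 10 kb. Regions beyond 1 Mb, those with the highest score per bp, the chromosome 15 and 18 stretches and the regions near chromosome starts were added after their values were seen. Gene lists and motifs that had been prepared were not used, because the gene tables were of another build.

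Computing used Python 3.11.15 with scipy 1.17.1, numpy 2.4.6 and pandas 2.3.3, and plotting used matplotlib 3.10.9. The merging was tested on simulated data of 2000 sites, and bedtools 2.31.1 gave the same 1630 regions.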

Additional observations from a re-analysis of the deposited data

How the results depend on the processing

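No paired analysis was possible because every list came from a single sample. The 7 summary values were recomputed under 8 other settings, 2 of them added after the data were examined. Of the 56 values, 36 stayed within the interval of the main value or, for the number of regions, within 1.5 times. The 20 outside all came from settings that changed the rule or restricted the lists by score. Start sites and CpG content were not run, since no genome of the files' build was used. Restricting the lists by score moved most values by construction. With the upper 50% of each list there were 479 regions (18.1% of ESC Mel18 regions), 170 of them in the main set and 309 not, with a median width of 1374 bp, a median score of 228, a median distance to MES peaks of 110.7 kb, 15.2% within 10 kb of a MES peak and 12.9% within 10 kb of another member. Without the lowest score quartile of the ESC list there were 655 regions (16.9%), with a median width of 867 bp, a median score of 93.0 and 28.4% within 10 kb of a MES peak. Where no MES peak was allowed within 5 kb, the share was 26.4%, 9.69% lay within 10 kb of a MES peak and the median distance was 47.8 kb. With peaks within 1 kb joined, the share was 29.5%, 17.8% lay within 10 kb of a MES peak, the median distance was 41.2 kb and 4.89% lay within 10 kb of another member. With 50% of the shorter peak required, which was counted per ESC peak, 1692 peaks (26.5% of ESC peaks, against 25.5% under the 1 bp rule) had no MES peak, and 26.2% of these lay within 10 kb of one. Of the 15 highest-scoring regions, 11 stayed with joining and 10 without a MES peak within 5 kb. All chromosomes, removal of the chromosome 18 stretch and removal of regions below 3.1 Mb left all 7 values within their intervals. These settings changed few regions (1689, 1612 and 1624 against 1630), so the values could hardly move.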

Other observations

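On the chromosomes left out of the main set, Mel18 regions of ESCs without a MES peak were also found. On chromosome X they numbered 43 of 141 ESC Mel18 regions, near the 31.1% of the main set. On chromosome Y they numbered 9 of 9, with a median score of 60.3, and at the start of chromosome 9 below 3.04 Mb 7 of 17. On chromosome 18, the region of 516 bp from 40467608 and one of 547 bp from 56099011 (score 289, 363.3 kb from a MES peak) were 2 of the 3 ESC-restricted regions with the highest score per bp.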
